A study of Mus musculus with 12 samples.

Results

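MC3T3-E1 is an established mouse preosteoblast line that lays down a collagen matrix and mineralizes it when it is induced to differentiate. The measurement described here is an interaction in RNA sequencing counts of these cells: the change from day 0 to day 14 of differentiation in the arm treated with interferon, minus the same change in the control arm. It was taken from 8 of the study's 12 libraries, chosen by their labelled arm and day and by no measured value: 2 of control cells at day 0, 2 of control cells at day 14, 2 of interferon-arm cells at day 0 and 2 of interferon-arm cells at day 14. All 4 groups are labelled wild type (WT) and were put through bone differentiation, with day 0 set 2 days after confluence. The treated arm received mouse interferon beta (IFN), at 50 mg/L in the labels' unit, and the labels do not state whether its day 0 libraries had already been exposed. The labels also do not say that the 2 libraries of a group came from separate cultures, so the p-values measure the spread between these libraries, which may be technical.

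Type I interferons bind a receptor made of Ifnar1 and Ifnar2, whose kinases Jak1 and Tyk2 activate transcription factors in the cytoplasm. Stat2 and Irf9 are part of the complex that then binds the interferon-stimulated response element (ISRE) in the promoters of antiviral genes. Osteoblast differentiation runs through the transcription factors Runx2 and Sp7 to a matrix of type I collagen, tenascins and small proteoglycans, which is then mineralized.

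The differentiation change differed between the arms for a small set of genes, more of them with a higher than with a lower change under interferon. Interferon-induced genes such as Irf7, Rsad2 and Zbp1 were among the first, and the matrix genes Tnn, Tnc and Col12a1 among the second. Of 17289 genes tested, 103 (0.596%) had an interaction at an adjusted p below 0.05 by edgeR's quasi-likelihood F test with Benjamini-Hochberg adjustment over all genes tested. The interaction was positive, a higher change in the interferon arm, for 75 genes (0.434%), and negative for 28 genes (0.162%). At an unadjusted p below 0.05 there were 1926 genes (11.1%), and the median interaction over all genes tested was -0.0011 on the log2 scale. Of the 75 positive genes, 41 belonged to the lists of interferon-stimulated and major histocompatibility complex (MHC) class I genes, and of the 28 negative genes 6 belonged to any of the 30 lists examined.

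Each of the 103 genes was placed by its fitted log2 change in each arm, with 0.5 as the smallest size counted as a change. A change present in the control arm and below that size in the interferon arm was called blocked. A change of at least that size in both arms and of opposite sign was called reversed, one of the same sign was called enhanced or blunted, and one below that size in controls was called interferon-only. By this placing 4 genes were blocked, 1 was blunted, 25 were reversed, 26 were enhanced and 47 were interferon-only. Of the 25 reversed genes, 15 had a positive and 10 a negative interaction; of the 26 enhanced genes 22 were positive and 4 negative, and of the 47 interferon-only genes 38 were positive and 9 negative. Over all genes tested, 268 (1.55%) rose and 143 (0.827%) fell in controls, and 895 (5.18%) rose and 962 (5.56%) fell in the interferon arm. The placing uses fitted sizes, and many control changes were not themselves called: 2 of the 15 positive and 5 of the 10 negative reversed genes had a called control change, as had 1 of the 22 positive and 3 of the 4 negative enhanced genes. Atp2b4 and Pax5 alone passed the test in each arm with opposite signs. The interaction and the control change are computed from the same control libraries, so their sizes are set side by side and no correlation between them is given.

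**Figure D1:**
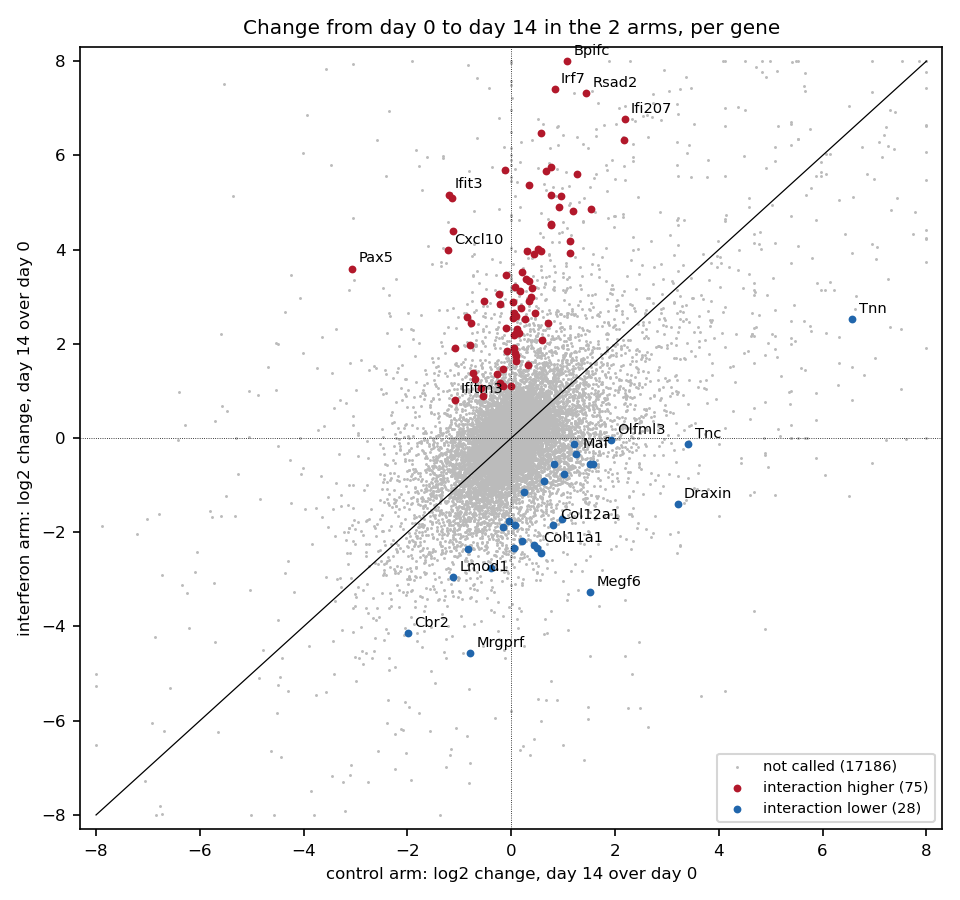
Each point is 1 of the 17289 genes tested, with its fitted log2 change from day 0 to day 14 in the control arm on the x axis and in the interferon arm on the y axis; the 103 genes with a called interaction are coloured by its sign and values beyond 8 in either direction are drawn at the edge. The 75 positive genes lie above the line of equal change, mostly at x values near 0, and the 28 negative genes lie below it, with the extracellular matrix gene Tnn far to the right.

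Library totals ran from 29772425 to 38908453 counts over all 12 libraries, and 20974 to 23633 genes had at least 1 count. Replicates differed more in the control arm than in the interferon arm: the median SD of log2 CPM (counts scaled to library size) was 0.29, 0.24 and 0.44 in controls at days 0, 14 and 21, and 0.084, 0.088 and 0.11 in the interferon arm. The fit used 1 spread per gene for all 6 groups, day 21 among them. Each SE therefore pools the 2 arms and is no measure of the spread of the control arm alone. The number of called interactions moved with single libraries, and a call lost without a library does not show that this library was discordant. With replicate 1 or 2 of the interferon arm left out it was 18 or 16 for day 0, 20 or 19 for day 14 and 36 or 36 for day 21. With replicate 1 or 2 of the controls left out it was 83 or 492 for day 0, 40 or 204 for day 14 and 354 or 344 for day 21. None of the 103 changed sign in any of the 21 alternative settings, and 16 were called in all of them: 15 positive genes, among them Irf7, Trim25, Irf9, Xaf1, H2-T22 and Pax5, and Tnn alone among the negative ones. The line's identity was checked on markers: Runx2 lay between 71.9 and 126 CPM, the leukocyte gene Ptprc did not exceed 0.123 CPM and the B cell gene Ms4a1 had no count in any library. Other osteoblast markers were uneven. Col1a1 did not fall below 1083 CPM, Sp7 lay between 3.91 and 28.4 CPM and Bglap between 0.292 and 6.89 CPM. At day 0 Alpl did not exceed 3.29 CPM and Ibsp did not exceed 0.0604 CPM. Not all markers of other cell types were low. Fabp4, a fatty acid carrier of adipocytes, read 2.03 and 1.26 then 24.5 and 17.0 CPM in controls and 0.846 and 0.969 then 7.98 and 6.88 CPM in the interferon arm; it rose in both arms and was lower under interferon at day 14 (-1.48, adjusted p = 0.0383), while the adipocyte genes Pparg and Adipoq did not exceed 0.130 and 0.246 CPM. Ctsk, a collagen-degrading protease of osteoclasts, lay between 63.0 and 523.3 CPM. The chondrocyte gene Col2a1 lay between 5.29 and 47.0 CPM, the muscle gene Des between 3.40 and 11.8 CPM and the epithelial gene Cdh1 between 0.111 and 4.35 CPM. The macrophage gene Cd68 was uneven between control replicates, at 8.80 and 1.23 CPM at day 0 and 11.1 and 4.25 CPM at day 14, and the part of these genes in any result was not tested. In bulk RNA, fewer cells of a type and less RNA per cell cannot be told apart.

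Of the negative genes, Tnn alone was called in every alternative setting. Tnn, tenascin N or tenascin W, a matrix protein of developing bone, stood at 1.42 and 1.97 CPM in the control libraries at day 0 and at 175.5 and 148.5 CPM at day 14. In the interferon arm it stood at 2.15 and 2.66 CPM at day 0 and at 15.2 and 12.4 CPM at day 14. Both arms were at a like low level at the start, and the day 14 libraries of the arms did not overlap. Tnn rose 95.2-fold in controls (log2 change 6.57, adjusted p = 2.4e-05) and 5.73-fold under interferon (2.52, adjusted p = 0.0011), an interaction of -4.05 ± 0.46 (SE, adjusted p = 0.00377, edgeR). It was the 1 gene placed as blunted, its rise kept in sign and reduced in size. Its interaction passed in all 12 fits that left out a library, and its highest adjusted p over the 21 settings was 0.0411. Tnn lies on mm10 chromosome 1, 160085029 to 160153580.

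Tnc, tenascin C, a matrix glycoprotein of bone surfaces, tendon and wounds, was one of the 4 blocked genes. It stood at 23.1 and 37.3 CPM in controls at day 0 and at 192.5 and 451.5 CPM at day 14, and at 34.1 and 36.1 then 35.7 and 28.8 CPM in the interferon arm. The control day 14 libraries were far apart from each other and both lay above every other library of the 4 groups. Tnc rose 10.7-fold in controls (3.41, adjusted p = 0.002), its change in the interferon arm was -0.12 (adjusted p = 0.88), and the interaction was -3.54 ± 0.53 (adjusted p = 0.0198, edgeR; mm10 chromosome 4, 63959785 to 64047015). The call was kept in 7 of 12 fits that left out a library and lost without control day 0 replicate 1 and without any 1 of the 4 interferon-arm libraries of days 0 and 14, where its adjusted p reached 0.122. It was 0.113 with 2 control libraries left out together, the first of day 0 and the second of day 21, which earlier work on these data had set apart.

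Olfml3, a secreted olfactomedin-like matrix protein, stood at 22.4 and 31.4 CPM in controls at day 0 and 91.3 and 113 CPM at day 14. In the interferon arm its libraries read 28.6 and 31.6, then 31.0 and 27.3 CPM. The control day 14 pair was again apart from all 6 other libraries. The control rise was 3.80-fold (1.93, adjusted p = 0.0014) and the interaction -1.97 ± 0.28 (adjusted p = 0.0147, edgeR; chromosome 3, 103722222 to 103738001). The call was lost without any 1 of the 4 interferon-arm libraries of days 0 and 14 (adjusted p up to 0.12).

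Maf, a basic leucine zipper transcription factor expressed in mesenchymal and T cells, read 75.7 and 96.6 CPM in controls at day 0 and 202 and 208.4 CPM at day 14, against 98.0 and 99.4 then 81.9 and 74.1 CPM in the interferon arm. It rose 2.38-fold in controls (1.25, adjusted p = 0.0032) and its interaction was -1.59 ± 0.23 (adjusted p = 0.0147, edgeR; chromosome 8, 115682942 to 115707794). Rnf19a, an E3 ubiquitin ligase with a RING-between-RING fold, read 79.9 and 96.8 CPM then 233 and 177.3 CPM in controls, and 94.8 and 101.9 then 90.1 and 89.8 CPM under interferon. Its control rise was 2.32-fold (1.22, adjusted p = 0.0073) and its interaction -1.34 ± 0.25 (adjusted p = 0.0479, edgeR; chromosome 15, 36239933 to 36283147). For both, every control day 14 library lay above every other one. The Maf call was lost when control day 14 replicate 1 or any 1 of the 4 interferon-arm libraries of days 0 and 14 was left out (adjusted p up to 0.127). The Rnf19a call was lost when the first replicate of control day 0 or of control day 14, or any of the 6 interferon-arm libraries, was left out (up to 0.284). All 4 blocked genes had a called rise in controls and none a called change in the interferon arm, and their median interaction was -1.78. A small change in the interferon arm is part of the definition of blocked, so its not being called follows largely from the placing.

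**Figure D2:**
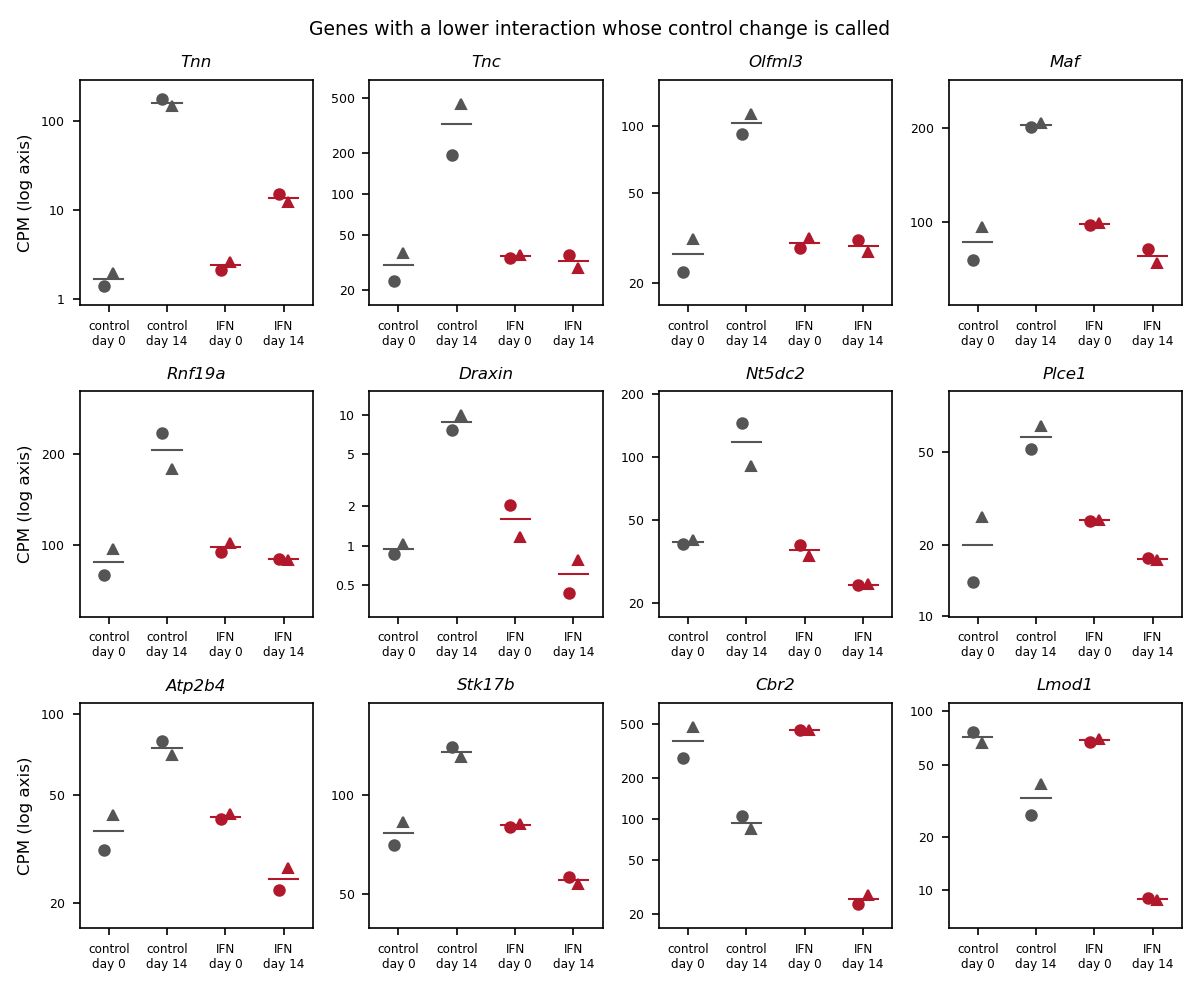
CPM on a log axis at day 0 and day 14 in each arm for 12 of the 13 genes with a negative interaction and a called control change; circles are replicate 1, triangles replicate 2, and short lines the mean of the 2 libraries, with controls in grey and the interferon arm in red. In the first 10 panels the control day 14 points are the highest of the gene; Tnn, the steepest, reached a mean of 162 CPM in controls and 13.8 CPM under interferon.

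Among the 10 genes with a negative interaction placed as reversed, 5 had a called rise in controls: Draxin, Nt5dc2, Plce1, Atp2b4 and Stk17b. Draxin, a secreted inhibitor of Wnt signalling and axon guidance cue, read 0.862 and 1.03 CPM in controls at day 0 and 7.72 and 9.91 CPM at day 14. Under interferon it read 2.06 and 1.16 CPM at day 0 and 0.436 and 0.779 CPM at day 14. The arms were separate at day 14, with interferon libraries below their own day 0 levels. The control rise was 9.26-fold (3.21, adjusted p = 0.024), the change under interferon was -1.41 (adjusted p = 0.17) and the interaction -4.62 ± 0.85 (adjusted p = 0.0451, edgeR; chromosome 4, 148098437 to 148130698); 4 of 12 fits without a library kept the call.

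Atp2b4, a plasma membrane calcium pump, was the negative gene with a called change in both directions. It read 31.4 and 42.4 then 79.0 and 70.5 CPM in controls, and 40.9 and 42.6 then 22.4 and 26.9 CPM under interferon. The day 14 libraries of the arms lay on opposite sides of all 4 day 0 libraries. It rose in controls (1.02, adjusted p = 0.035) and fell under interferon by 0.76 on the log2 scale (adjusted p = 0.045), an interaction of -1.78 ± 0.30 (adjusted p = 0.0308, edgeR; chromosome 1, 133699457 to 133801041) that 4 of 12 fits without a library kept.

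Stk17b, an apoptosis-related serine/threonine kinase, read 70.7 and 82.6 then 139 and 130 CPM in controls and 80.2 and 81.7 then 56.4 and 53.8 CPM under interferon. Its control rise was 0.81 (adjusted p = 0.041) and its interaction -1.37 ± 0.25 (adjusted p = 0.0439, edgeR). Nt5dc2, a protein with a nucleotidase-like domain, reached 145 and 90.6 CPM at day 14 in controls and 24.5 and 24.7 CPM under interferon, from 33.8 to 40.3 CPM at day 0 in either arm (interaction -2.13 ± 0.36, adjusted p = 0.0308). Plce1, a phospholipase C that links Ras family signals to calcium, reached 51.4 and 64.6 CPM against 17.6 and 17.3 CPM (-2.08 ± 0.39, adjusted p = 0.0479). The calls of Stk17b and Plce1 were kept in 3 and that of Nt5dc2 in 4 of the 12 fits without a library. In each of these 3 genes both control libraries at day 14 were above both interferon ones. The change in the interferon arm was -0.54 for Nt5dc2, -0.55 for Plce1 and -0.56 for Stk17b (adjusted p = 0.199, 0.237 and 0.0713, edgeR). These falls were just past the 0.5 counted as a change and were not called, so the 3 genes are placed as reversed by size alone.

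The other 5 reversed genes with a negative interaction, Adamts9, Col12a1, Idh2, Megf6 and Plekhg4, had control changes that did not pass the test. Megf6, a large protein of epidermal growth factor repeats, had the most negative interaction of all genes called. It read 6.99 and 16.9 CPM in controls at day 0 and 42.5 and 25.9 CPM at day 14, and 20.1 and 17.9 then 1.88 and 2.045 CPM under interferon. The 2 control day 0 libraries were further apart than the 2 interferon-arm ones, and the interferon day 14 pair was lowest of all. The control change was 1.52 (adjusted p = 0.17), Megf6 fell 9.69-fold under interferon (adjusted p = 0.0053) and the interaction was -4.79 ± 0.76 (adjusted p = 0.0257, edgeR; chromosome 4, 154170730 to 154275713); 6 of 12 fits without a library kept it.

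Col12a1 encodes collagen XII, which coats fibrils of type I collagen. It read 1614 and 2058 then 3398 and 3053 CPM in controls, and 2070 and 2142 then 625.5 and 543.8 CPM under interferon. The day 14 control libraries were above, and the day 14 interferon libraries below, all 4 of day 0. The control change was 0.81 (adjusted p = 0.26), and Col12a1 fell under interferon (-1.85, adjusted p = 0.0084). The interaction was -2.66 ± 0.49 (adjusted p = 0.0451, edgeR; chromosome 9, 79598991 to 79718831), kept in 3 of 12 fits without a library. Plekhg4, a guanine nucleotide exchange factor, read 8.03 and 15.6 then 18.1 and 17.2 CPM in controls and 19.4 and 16.6 then 3.95 and 2.63 CPM under interferon (-3.02 ± 0.51, adjusted p = 0.0308, edgeR; chromosome 8, 105373274 to 105382862). Adamts9, a metalloproteinase that cleaves proteoglycans, read 31.3 and 58.2 CPM at day 14 in controls against 8.37 and 7.24 CPM (-2.71 ± 0.43, adjusted p = 0.0256). Idh2, the mitochondrial NADP-dependent isocitrate dehydrogenase, read 179 and 154 against 64.2 and 67.3 CPM (-1.55 ± 0.27, adjusted p = 0.0331). The fits without a library kept Plekhg4 and Idh2 in 4 and Adamts9 in 5 of 12 cases.

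The 9 negative genes placed as interferon-only had a flat control arm by size: Ank3, Cd248, Cdon, Col11a1, Col5a2, Diras2, Grb14, Rab3il1 and Synm. Their median interaction was -2.37. Col5a2, a chain of collagen V, which sets the diameter of collagen fibrils, read 659 and 970 then 890 and 692 CPM in controls, and 950 and 985.5 then 285.5 and 282 CPM under interferon. The interferon day 14 libraries were the lowest of the 8, while the control days overlapped. Its control change was -0.04, it fell by 1.77 on the log2 scale under interferon (adjusted p = 0.00089), and the interaction was -1.73 ± 0.30 (adjusted p = 0.0367, edgeR; chromosome 1, 45374321 to 45503282).

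Col11a1, a chain of collagen XI of cartilage and thin fibrils, read 50.1 and 130 then 149 and 105 CPM in controls and 129 and 135 then 27.3 and 25.2 CPM under interferon. Control day 0 replicate 1 lay far below the other 3 day 0 libraries. The interaction was -2.83 ± 0.50 (adjusted p = 0.0393, edgeR; chromosome 3, 114030540 to 114220718), and it missed the threshold when the 8 libraries were fitted without day 21 (adjusted p = 0.0748). Synm, an intermediate filament protein of muscle cells, read 22.3 and 32.1 CPM at day 14 in controls and 6.08 and 4.93 CPM under interferon (-2.71 ± 0.45, adjusted p = 0.0305; chromosome 7, 67730160 to 67759742). Cd248, endosialin, a receptor of fibroblasts and pericytes, read 87.8 and 59.8 against 18.0 and 18.3 CPM (-2.37 ± 0.40, adjusted p = 0.0323). Grb14, Rab3il1, Diras2, Cdon and Ank3 had interactions from -2.39 to -1.40; Cdon, a co-receptor of Hedgehog and cadherin signals, read 90.6 and 99.2 CPM at day 14 in controls and 37.05 and 37.04 CPM under interferon, and Ank3, a membrane adaptor of the spectrin skeleton, 68.7 and 68.8 against 26.9 and 30.7 CPM. Col11a1, at a control change of 0.50, lay just under the size counted as a change. Of the 12 fits without a library, 5 kept Col11a1 and Cd248, 4 kept Col5a2, Synm and Cdon, and 3 kept Ank3.

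The main collagen of bone did not pass. Col1a1 read 2574 and 5956 then 6610 and 3894 CPM in controls, and 5903 and 6342 then 1089 and 1083 CPM under interferon. The control libraries of the 2 days overlapped, while both interferon libraries at day 14 were below all others. Col1a1 fell under interferon by 2.50 on the log2 scale (adjusted p = 0.0053). Its interaction was -2.80 ± 0.59 with a 95% confidence interval from -4.09 to -1.50 and an adjusted p of 0.0839 (edgeR; chromosome 11, 94936224 to 94953042). It was called in 8 of the 21 alternative settings.

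In 4 genes a fall was deepened under interferon: Cacna1a, Cbr2, Lmod1 and Mrgprf. Cbr2, a carbonyl reductase, read 281.5 and 476 then 105 and 84.5 CPM in controls, and 452.5 and 454 then 23.8 and 27.7 CPM under interferon. Both arms went down, and the interferon pair ended below the control pair. The fall was 3.995-fold in controls (adjusted p = 0.0021) and 17.6-fold under interferon (adjusted p = 2.4e-05), an interaction of -2.14 ± 0.33 (adjusted p = 0.0226, edgeR).

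Lmod1, leiomodin, an actin nucleator of smooth muscle, read 77.0 and 66.8 then 26.4 and 39.6 CPM in controls and 67.7 and 70.5 then 9.02 and 8.89 CPM under interferon. It fell 2.18-fold in controls (adjusted p = 0.028) and 7.71-fold under interferon (adjusted p = 8.4e-05), with an interaction of -1.82 ± 0.31 (adjusted p = 0.0331, edgeR; chromosome 1, 135324807 to 135368065). Cacna1a, the pore subunit of a voltage-gated calcium channel, read 48.4 and 58.6 CPM at day 14 in controls and 16.7 and 17.7 CPM under interferon (-1.53 ± 0.23, adjusted p = 0.021). Mrgprf, an orphan G protein-coupled receptor, had no called change in controls, at 11.4 and 11.8 then 9.98 and 3.46 CPM. Under interferon it fell from 13.2 and 12.04 to 0.654 and 0.3895 CPM (-4.57, adjusted p = 0.00075; interaction -3.79 ± 0.68, adjusted p = 0.0418; chromosome 7, 145300828 to 145309557). The interaction of Mrgprf was kept in 3 of 12 fits without a library, those of Cbr2 and Lmod1 in 5 and that of Cacna1a in 6.

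Of the 75 genes with a positive interaction, 2 had a called fall in controls, Pax5 and Ifitm3. Pax5, the transcription factor that sets B cell identity, read 0.616 and 0.705 CPM in controls at day 0 and 0.122 and 0.0301 CPM at day 14. In the interferon arm it read 0.574 and 0.498 CPM at day 0 and 7.11 and 5.94 CPM at day 14. The 4 day 0 libraries lay close together and the arms then parted to either side of them. Reads were few in controls, at 20 and 28 counts at day 0 and 4 and 1 counts at day 14. The size of the control fall, and the part of the interaction that comes from it, are therefore poorly determined. Pax5 fell 8.36-fold in controls (-3.06, adjusted p = 0.027) and rose 12.1-fold under interferon (3.60, adjusted p = 0.001), an interaction of 6.66 ± 0.74 (adjusted p = 0.00371, edgeR; chromosome 4, 44524757 to 44710487). All 12 fits without a library kept the call, and its highest adjusted p over the 21 settings was 0.0495. Of the B cell list, Ms4a1 had no count in any library and Ptprc was near 0, as given above.

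Ifitm3, a membrane protein that blocks virus entry, read 475 and 546.5 then 183.5 and 295.5 CPM in controls, and 483 and 516 then 839 and 921 CPM under interferon. The day 14 pairs lay on either side of all day 0 libraries. It fell in controls by 1.09 on the log2 scale (adjusted p = 0.047), had a value of 0.82 under interferon (adjusted p = 0.058) and had an interaction of 1.91 ± 0.34 (adjusted p = 0.0433, edgeR); 4 of 12 fits without a library kept it. The other 13 positive genes placed as reversed had control changes that did not pass: Axl, Cxcl10, Gbp2, Ifit1bl1, Ifit2, Ifit3, Ifit3b, Irgm1, Lgals9, Pml, Slfn3, Trex1 and Xaf1. Their interactions began at 1.43 ± 0.23 in Axl, a receptor tyrosine kinase that damps innate immune signals. Among the largest, Ifit3, an antiviral protein of the IFIT complex, read 13.4 and 27.0 then 3.11 and 14.4 CPM in controls, and 35.2 and 27.9 then 1119 and 1145 CPM under interferon. Its control days overlapped (-1.21, adjusted p = 0.34), it rose by 5.16 under interferon (adjusted p = 0.0011) and the interaction was 6.37 ± 0.87 (chromosome 19, 34583531 to 34588731). Cxcl10, a chemokine for T cells, read 2.05 and 5.24 CPM at day 14 in controls and 124 and 132 CPM under interferon (5.22 ± 0.69, adjusted p = 0.0116). Ifit3b and Ifit1bl1, relatives of Ifit3, had interactions of 6.23 ± 0.98 and 5.53 ± 0.78; Ifit3 and Ifit3b are near copies, and the split of reads between them is uncertain.

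**Figure D3:**
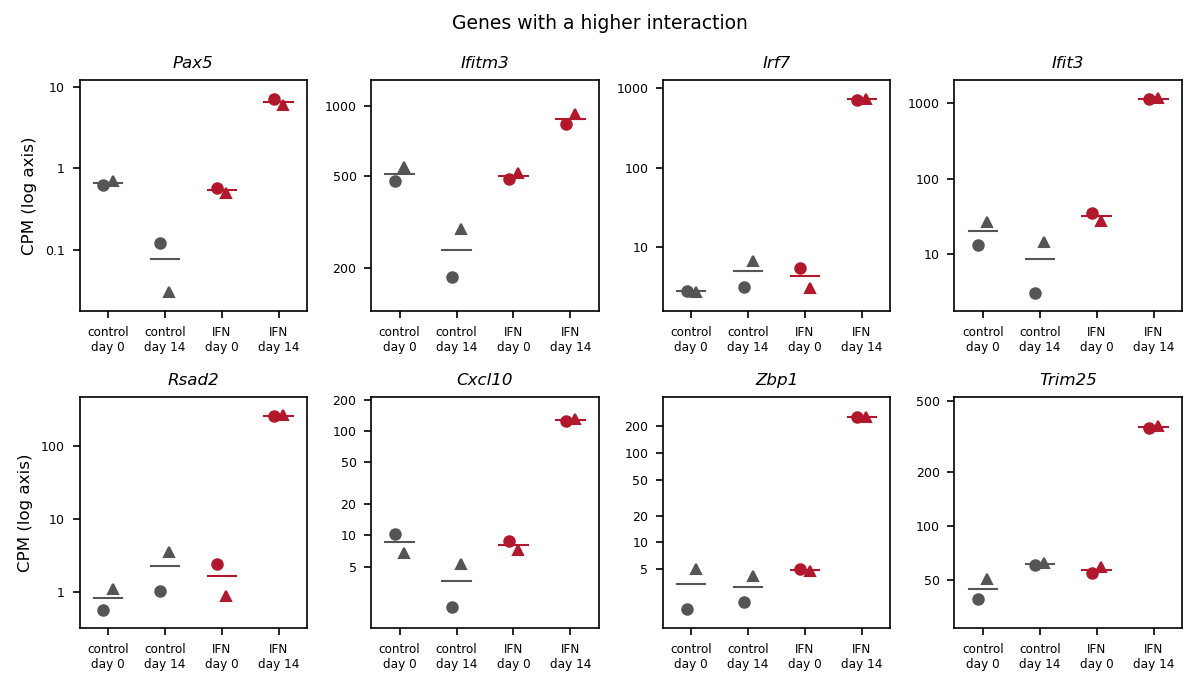
CPM on a log axis at day 0 and day 14 in each arm for 8 genes with a positive interaction; circles are replicate 1, triangles replicate 2, and short lines the mean of the 2 libraries, with controls in grey and the interferon arm in red. The arms start at like levels and part by day 14, with Irf7 at 720 and 742 CPM under interferon against 3.17 and 6.72 CPM in controls, and day 14 values of Pax5 and Ifitm3 below those of day 0 in controls and above them under interferon.

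The interferon-stimulated genes carried most of the positive calls, and nearly all of their change was in the interferon arm. Of 67 genes of the list that were tested, 38 had a called positive interaction and 0 a negative one, with a median of 3.50 against -0.0011 over all genes tested. In the interferon arm 64 of the 67 rose, and in controls 3 rose (5.18% and 1.55% over all genes tested). A called positive interaction was found for 0.434% of all genes tested. The median level of the list was 2.89 and 3.24 log2 CPM in controls at day 0, 2.90 and 4.14 at day 14, 3.99 and 3.33 in the interferon arm at day 0 and 8.01 and 8.04 at day 14. The 2 control day 14 libraries differed in this level, and the list's median interaction was 3.11 without replicate 1 and 4.28 without replicate 2 of that group. The list has 2 genes with a negative value: Ifi27, a mitochondrial interferon-induced protein, at -2.10 (adjusted p = 0.199), and Isg20, an exonuclease, at -0.26.

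Irf7, the transcription factor that amplifies interferon production, read 2.83 and 2.70 then 3.17 and 6.72 CPM in controls, and 5.50 and 3.10 then 720 and 742 CPM under interferon. All 6 libraries other than the interferon day 14 pair lay below 7 CPM. It rose 170-fold under interferon, its control ratio was 1.79 and not called, and the interaction was 6.57 ± 0.51 (adjusted p = 0.000969, edgeR; chromosome 7, 141262706 to 141266481). The interaction was 2.62 ± 0.29 for Irf9 (adjusted p = 0.00371) and 3.05 ± 0.42 for Stat2 (adjusted p = 0.0126), 2 proteins of the complex that binds the ISRE.

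Effectors had the same shape. Rsad2, viperin, which makes a chain-terminating nucleotide, read 0.554 and 1.08 then 1.01 and 3.52 CPM in controls, and 2.42 and 0.858 then 257 and 264 CPM under interferon, a 160-fold rise (interaction 5.875 ± 0.83, adjusted p = 0.0147, edgeR; chromosome 12, 26442746 to 26456452). Zbp1, a sensor of Z-form nucleic acid, read 2.14 and 4.25 CPM at day 14 in controls and 254 and 252 CPM under interferon (5.81 ± 0.66, adjusted p = 0.00377; chromosome 2, 173206612 to 173218923). Tgtp1, an immunity-related GTPase, read 0.702 and 2.14 against 131 and 124 CPM (5.92 ± 0.98, adjusted p = 0.0305; chromosome 11, 48985327 to 48994172). In each of these genes the interferon day 14 pair was far above all other libraries, and the control libraries of the 2 days overlapped.

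Some genes with smaller interactions kept their call throughout. Trim25, a ubiquitin ligase that activates the RNA sensor RIG-I, read 39.1 and 50.5 then 60.7 and 62.1 CPM in controls, and 54.4 and 59.0 then 352 and 360 CPM under interferon (2.195 ± 0.23, adjusted p = 0.00309, edgeR). Sp100, a nuclear body protein, had an interaction of 3.55 ± 0.39, Xaf1, a proapoptotic antagonist of XIAP, one of 3.44 ± 0.38, and Phf11d, a PHD finger protein, one of 5.03 ± 0.61. Parp14, a mono-ADP-ribosyltransferase, had one of 3.67 ± 0.59 (adjusted p = 0.0257). Of these, Trim25, Sp100 and Xaf1 were among the 16 genes called in every setting. Ifi207, a DNA sensor of the Ifi200 family, had 1 control day 0 library apart from the other 3 libraries of that day: it read 27.2 and 5.47 then 54.1 and 94.0 CPM in controls, and 6.32 and 4.37 then 574.6 and 595.9 CPM under interferon (4.59 ± 0.84, adjusted p = 0.0451). Its arms already differed by -1.61 at day 0, a difference that was not called, its call was kept in 1 of 12 fits without a library, and its value was 3.01 without both control libraries set apart above. The 38 positive genes placed as interferon-only began at 1.11 ± 0.21 in Usp25, a deubiquitinase, at 173.8 and 169.3 CPM at day 14 under interferon and 75.7 to 83.8 CPM in every other library of the 4 groups. They included the RNA sensor Ddx58, or RIG-I (2.57 ± 0.48), the RNA-editing enzyme Adar (2.15 ± 0.27), the translation-blocking kinase Eif2ak2 (1.86 ± 0.35) and the interleukin 33 receptor Il1rl1 (3.28 ± 0.60). Il1rl1 read 148.6 and 46.1 CPM in controls at day 0, was kept in 2 of 12 fits without a library and had a value of 2.19 without both of those control libraries. The 22 enhanced positive genes included the checkpoint ligand Cd274, or PD-L1, at 5.59 and 11.8 CPM at day 14 in controls and 57.8 and 62.4 CPM under interferon (2.79 ± 0.47), and Mx1, a GTPase that traps virus particles (5.00 ± 0.86). Of the 12 fits without a library, 8 kept Adar, 4 kept Eif2ak2 and Cd274, and 3 kept Usp25, Ddx58 and Mx1.

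The promoters of the positive genes were read for 2 response elements, since these genes moved together. RefSeq promoter sequences (assembly GRCm38.p6, from 250 bases before to 50 bases after the annotated start) were found for 65 of the 75 positive genes and 20 of the 28 negative ones. The ISRE was searched as GAAA, any 2 bases and GAAA again, and the gamma-activated sequence (GAS) as TTC, any 3 bases and GAA, on both strands. An ISRE match was in a promoter of 33 of the 65 genes (50.8%), of 0 of the 20 and of 432 of the 11638 genes tested that have an entry (3.71%). A GAS match was in 10 of 65 (15.4%), in 1 of 20 and in 976 of 11638 (8.39%). The ISRE matches nearest the start lay between 222 bases before and 32 bases after the start, with a median of 37 bases before it, 15 in the gene's orientation and 18 on the other strand. A match describes the letters only and is not evidence of binding.

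Windows of 40 bases are shown for 12 of the 33 positive genes with a match, to let the shared letters be seen, printed in the gene's orientation with the match nearest the start in capitals; the genes were chosen after their values were seen, and pairs of near copies are shown together.
Ifit3, chr19:34583392-34583431, plus strand: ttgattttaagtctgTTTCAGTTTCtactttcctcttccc
Ifit3b, chr19:34607788-34607827, plus strand: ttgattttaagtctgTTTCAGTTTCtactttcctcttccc
Rsad2, chr12:26456548-26456587, minus strand: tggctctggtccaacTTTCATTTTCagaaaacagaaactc
Tgtp1, chr11:48992299-48992338, minus strand: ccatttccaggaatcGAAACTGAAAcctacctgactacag
Cxcl10, chr5:92349078-92349117, minus strand: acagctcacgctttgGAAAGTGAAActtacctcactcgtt
Isg15, chr4:156200860-156200899, minus strand: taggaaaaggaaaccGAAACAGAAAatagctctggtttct
Bst2, chr8:71537572-71537611, minus strand: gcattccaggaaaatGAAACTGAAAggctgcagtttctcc
Stat2, chr10:128270261-128270300, plus strand: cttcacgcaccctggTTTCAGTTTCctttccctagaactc
Ifi203, chr1:173942503-173942542, minus strand: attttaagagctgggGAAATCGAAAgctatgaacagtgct
Mndal, chr1:173880199-173880238, minus strand: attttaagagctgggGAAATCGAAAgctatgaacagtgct
H2-T22, chr17:36042909-36042948, minus strand: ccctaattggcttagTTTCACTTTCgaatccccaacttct
B2m, chr2:122147533-122147572, plus strand: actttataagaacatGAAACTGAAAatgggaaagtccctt
The windows of Isg15 and Bst2 hold further matches in lower case that overlap or adjoin the one in capitals. No ISRE match was found in the promoters listed for Irf7, Irf9, Pax5, Trim25, Sp100, Xaf1, Phf11d and Tap1, which says only that these letters are not in those windows. The windows of Ifit3 and Ifit3b were identical, as were those of Ifi203 and Mndal, DNA sensors of the Ifi200 family. Whether reads were shared within these pairs was not tested, and identical promoter windows do not show it. The distance of the match from the start ran from 222 bases before it in Stat2 to 35 bases before it in Ifi203.

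Genes of antigen presentation by MHC class I had smaller values. Of 20 genes tested, 3 had a called positive interaction and 0 a negative one (0.434% and 0.162% over all genes tested). All 20 values were positive with a median of 1.55 (0.955 without control day 0 replicate 2). In the interferon arm 13 of the 20 rose, against 5.18% of all genes tested. H2-T22, a class I heavy chain, read 82.6 and 95.1 then 91.0 and 134 CPM in controls, and 95.1 and 97.9 then 715 and 735 CPM under interferon (2.57 ± 0.29, adjusted p = 0.00371, edgeR). B2m, the light chain of all class I molecules, read 1370 and 1094 then 1150 and 1482 CPM in controls, and 1043 and 1066 then 3256 and 3268 CPM under interferon (1.53 ± 0.28, adjusted p = 0.0451). Tap1, a peptide transporter, reached 75.5 and 97.7 CPM in controls and 303 and 316 CPM under interferon (1.74 ± 0.31, adjusted p = 0.0436). The interferon day 14 libraries of all 3 were above every other library; 4 of 12 fits without a library kept B2m and 4 kept Tap1, and heavy chain genes share reads with their paralogs.

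Components of the receptor and kinase pathway were tested as a separate list of 20 genes, in which 0 interactions were called and the median was -0.10. Stat2 and Irf9, which act in the same pathway and were called, were counted in the interferon-stimulated list and not in this one. The receptor chain Ifnar1 had a value of -0.12 ± 0.32 and an adjusted p of 0.935, and its partner chain one of -0.03 ± 0.26 and 0.988 (Ifnar2). Jak1, a kinase bound to the receptor, had a value of -0.27 ± 0.25 and its partner Tyk2 one of 0.27 ± 0.43.

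The osteoblast programme was tested against the same threshold. Of 23 osteoblast genes tested, 0 had a called positive interaction and 1, Tnn, a negative one, with a median of -0.77; 4 of the 23 rose and 1 fell in controls (1.55% and 0.827% over all genes tested), and 3 rose and 6 fell in the interferon arm (5.18% and 5.56%). Runx2, the lineage-setting factor, had a value of -0.14 ± 0.30 with a 95% confidence interval from -0.81 to 0.53 (adjusted p = 0.909, edgeR). Sp7, osterix, which acts after Runx2, read 3.91 and 6.68 then 16.2 and 28.4 CPM in controls, and 5.92 and 6.01 then 11.3 and 13.2 CPM under interferon. It rose in controls (2.07, adjusted p = 0.018), and its interaction was -1.03 ± 0.51 (adjusted p = 0.49). Alpl, the phosphatase that frees phosphate for mineral, read 0.554 and 2.95 then 10.6 and 20.1 CPM in controls against 3.29 and 2.44 then 4.22 and 4.09 CPM under interferon (-2.58 ± 0.97, adjusted p = 0.365). For both, the interaction did not pass. The changes of the arms did not overlap in either gene, as in 2979 of all genes tested (17.2%) in that direction.

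Ibsp, Bglap and Sparc, products of the mature osteoblast, did not pass. Ibsp, bone sialoprotein, had 0 counts in controls at day 0 and 1135 counts over the 2 libraries at day 14, at least 414-fold higher when the day 0 pair is set to a floor of 3 counts over the group. In the interferon arm it had 2 counts and then 102, a ratio of 52.3 with a counting interval of 14.1 to 437.6 that covers counting error only, and its interaction had an adjusted p of 0.438. At day 14 itself it was lower under interferon, at 2.26 and 0.617 CPM against 21.97 and 12.5 CPM (-3.56, adjusted p = 0.0202). Bglap, osteocalcin, had an interaction of -0.26 ± 1.43 (adjusted p = 0.977), and Sparc, osteonectin, one of -0.77 ± 0.24 (adjusted p = 0.278). The mineralization list of 14 genes had 0 calls and a median of -0.43, whose sign was not kept in every setting.

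Sox9, the chondrogenic transcription factor that the series' title names, read 174 and 106 CPM in controls at day 0 and 175 and 143.5 CPM at day 14. In the interferon arm it read 104 and 116 then 190 and 180.5 CPM. The control days overlapped, and both interferon libraries at day 14 lay above both at day 0. Its interaction was 0.56 ± 0.32 with a 95% confidence interval from -0.13 to 1.26 and an adjusted p of 0.552 (edgeR; chromosome 11, 112782224 to 112787760). Of 11 chondrocyte genes tested, 1 was called, Col11a1 as described, with a list median of -0.61, and of -0.92 without interferon-arm day 14 replicate 2.

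Matrix and mesenchymal lists leaned to lower values with few calls. The basement membrane and proteoglycan list of 29 genes had 2 negative calls, Tnc and Col12a1, and a median of -1.03 (-0.69 without control day 0 replicate 1), with 0 rises and 8 falls in the interferon arm and 1 rise and 1 fall in controls. The fibroblast and tendon list of 15 genes had 1, Col5a2, with a median of -1.03, and 0 rises and 7 falls in the interferon arm, where 5.56% of all genes fell. Its median was -0.79 without control day 0 replicate 1 and -2.0 without replicate 2. This list and the basement membrane and proteoglycan list had the same lowest, median and highest interaction (-4.34, -1.03 and 3.72). They share members, so their falls may be in part the same genes. Of 13 contractile genes, 4 fell in controls and 8 under interferon, 1 rose in each arm, and 1 interaction was called, Lmod1; the median was -0.86, and -0.46 without control day 14 replicate 2. Acta2, smooth muscle actin, fell by 2.33 on the log2 scale in controls (adjusted p = 0.0455) and by 3.29 under interferon (adjusted p = 0.00408), an interaction of -0.96 ± 0.70 that did not pass (adjusted p = 0.667).

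Wnt signalling, which promotes osteoblast fate, had 0 interactions called among 29 genes, with a median of -0.71 that moved to -1.48 without control day 0 replicate 2. In controls 3 of the 29 rose and 1 fell, and in the interferon arm 1 rose and 10 fell, against 5.18% and 5.56% of all genes tested. Lrp5, a Wnt co-receptor, read 130.1 and 166.6 then 526.0 and 398.8 CPM in controls, and 151.4 and 166.3 then 198.5 and 172.2 CPM under interferon. Its control rise was called (1.64, adjusted p = 0.00215), and its interaction lay just outside the threshold (-1.42 ± 0.27, adjusted p = 0.0545, edgeR). Axin2, a feedback target of the pathway, read 9.31 and 14.2 CPM at day 14 in controls and 3.19 and 3.57 CPM under interferon (-1.88 ± 0.47, adjusted p = 0.148). Both genes read lower under interferon at day 14, and neither interaction passed. The BMP and TGF-beta list of 32 genes had 0 calls and a median of -0.22, and of -0.06 and -0.45 without control day 0 replicate 2 or 1.

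Most genes that changed in controls changed the same way under interferon. Of the 268 genes that rose in controls, 166 (61.9%, and 18.5% of the 895 that rose in the interferon arm) also rose in the interferon arm, 1 fell, Atp2b4, and 101 had no called change there. Of the 143 that fell in controls, 110 (76.9%, and 11.4% of the 962) also fell, 1 rose, Pax5, and 32 had no called change. The sign was shared by 250 of the 268 and 138 of the 143. The median change of the rising genes was 2.23 in controls and 1.48 under interferon, and that of the falling genes -1.51 and -1.62. Choosing genes by the control change favours larger control values, so these medians are a description. The interaction subtracts that same control change, so this choice also favours calls that take away from it over calls that add to it. The counts of such calls are likewise a description. A called interaction that took away from the control change was found for 12 of these 411 genes, 10 rises and 2 falls, and one that added to it for 4, Ifi203-ps, Cacna1a, Cbr2 and Lmod1.

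Glucocorticoid targets were among the changes shared by the arms. Of 13 genes tested, 10 rose in each arm, against 1.55% of all genes tested in controls and 5.18% in the interferon arm. Called interactions numbered 0 (0.596% over all genes tested), with a median of -0.68, and of -0.31 without control day 14 replicate 1. Fkbp5, a chaperone of the glucocorticoid receptor, read 27.5 and 33.5 then 1027 and 692.3 CPM in controls, and 36.2 and 33.4 then 581.3 and 543.9 CPM under interferon. Tsc22d3, a leucine zipper protein induced by glucocorticoids, rose by 4.58 in controls and 3.48 under interferon on the log2 scale. For both, day 14 was far above day 0 in each arm, and the smaller rise under interferon did not pass the test of the difference (adjusted p = 0.477 for Fkbp5 and 0.216 for Tsc22d3).

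Glycolysis and hypoxia genes had the lowest median of the lists named here with 0 calls among 29 genes, -1.34. This value moved with 1 library: the list's median level was 9.12 log2 CPM in control day 14 replicate 1 and 7.17 in replicate 2. Without replicate 1 the median interaction was -0.30, and without replicate 2 it was -1.90. The cell cycle list of 30 genes and the chemokine list of 25 had 0 calls each, with medians of 0.31 and 0.18; the sign of the cell cycle median was not kept in every setting.

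**Figure D4:**
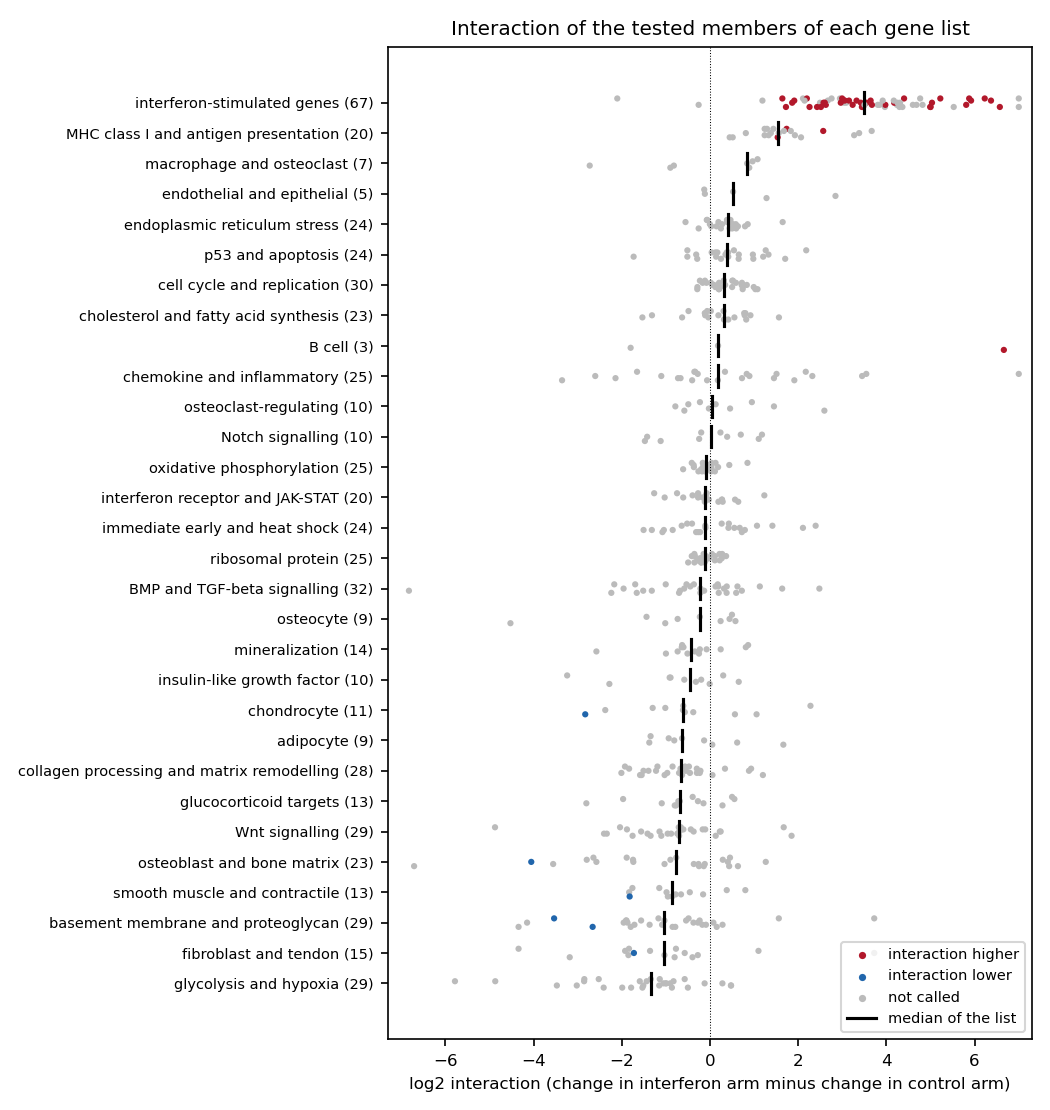
Each row is a gene list, each point a tested gene's interaction on the log2 scale (values beyond 7 drawn at the edge), coloured where called and grey otherwise, with a bar at the list's median. The interferon-stimulated list is shifted to the right, with a median of 3.50 and 38 called genes, and the matrix and mesenchymal lists sit slightly to the left of 0 with at most 2 called genes each.

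Bpifc, of the bactericidal permeability-increasing protein family, had the most positive fitted value, 8.92 ± 0.83 (adjusted p = 0.00309, edgeR), and a shape unlike the other genes. It had 65 counts over the control libraries at day 0 and 0 counts over the interferon-arm libraries of that day, so controls were at least 20.8-fold higher at the start with the interferon pair set to 3 counts over the group. At day 14 it read 2.01 and 1.84 CPM in controls and 3.60 and 3.96 CPM under interferon, where 254 counts were at least 86.8-fold above the day 0 floor. It was the 1 gene with a called difference between the arms at day 0 (0 genes higher and 1 lower, 0.00578%), and the 1 positive gene whose day 0 difference was larger than its day 14 difference. Its fitted value rests on the 0 counts at day 0 and is no measure of fold (chromosome 10, 85959340 to 86011895).

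For most of the other called genes the difference between the arms at day 0 was small beside that at day 14. In 74 of the 75 positive genes the day 14 difference between the arms was the larger one, and the median size of the day 0 difference was 0.27. In all 28 negative genes it was the larger one as well, with a median size at day 0 of 0.20. A day 0 difference of over 0.5 in size was nonetheless present in 16 of the positive and 5 of the negative genes. The day 14 difference was called in 74 of the 75 and in all 28 (background 224 higher genes, 1.3%, and 172 lower, 0.995%). This comparison shares the day 14 libraries with the interaction and is a description of where it came from.

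The day 21 libraries do not enter the contrast, though they did enter the estimate of spread. At day 21 the positive genes remained apart: 74 of 75 had a difference of the same sign, 64 of them called (background 145 genes, 0.839%), and in 74 the interferon and control libraries did not overlap (3620 of all genes tested, 20.9%). Their median difference was 3.00 at day 14 and 2.40 at day 21. Of the 28 negative genes, 27 had the same sign at day 21, 6 were called (background 27 genes, 0.156%), and in 24 the arms did not overlap (3207 genes, 18.5%). Their median difference was -1.95 at day 14 and -0.91 at day 21. Tnn stayed lower at day 21 (-4.28, adjusted p = 0.00035), as did Col5a2 (-1.62, adjusted p = 0.0052) and Olfml3 (-1.23, adjusted p = 0.015), while Maf had a difference of 0.19.

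**Figure D5:**
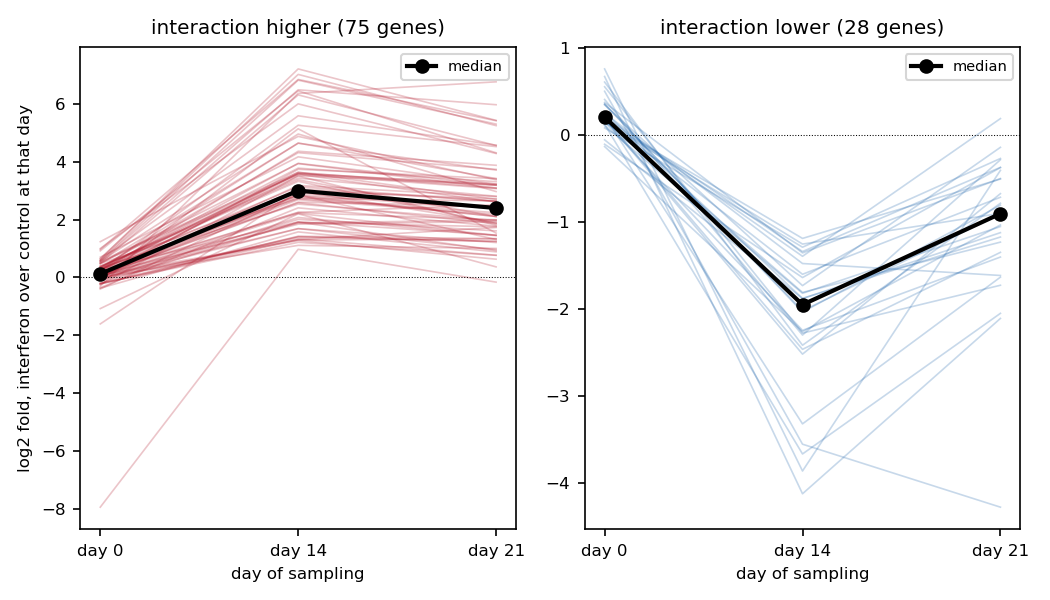
The log2 difference between interferon and control libraries at days 0, 14 and 21 for the 75 genes with a positive interaction and the 28 with a negative one, on separate y axes; thin lines are genes and the black line the median. Both medians start near 0; the positive set has medians of 3.00 at day 14 and 2.40 at day 21, and the negative set -1.95 and -0.91.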

How the data were processed

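RNA from 12 libraries of MC3T3-E1 cells was sequenced. The authors deposited whole-number read counts per gene symbol; per the submitters' processing notes HISAT2, SAMtools and featureCounts were used with mm10, and the annotation and strand setting are not given in the sources used here, so overlapping genes cannot be told apart. Of 55291 symbols, 53292 matched the GENCODE M21 annotation of GRCm38, from which positions were taken.

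The counts were filtered with filterByExpr, scaled by TMM and fitted with edgeR 4.0.16 (limma 3.58.1, R 4.3.3; robust quasi-likelihood F test, 6 groups, all 12 libraries, 6 residual degrees of freedom). The interaction was tested over 17289 genes at a Benjamini-Hochberg adjusted p below 0.05. CPM values use TMM-scaled library sizes. Median differences and list medians are medians of fitted log2 values. The scripts were tested on simulated data.

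Alternatives were DESeq2 1.42.0 (size factors and test), voom, other scalings and filters, the 8 libraries alone, a replicate block, and leaving out each library or a pair of control libraries set apart in earlier work. Members and gene lists were chosen with earlier results of these data known. Genes were named by rule: 10 osteoblast, collagen and receptor genes, Sox9 among them, always; the 8 highest and 8 lowest called genes and the 4 largest of each class whose mean log2 CPM reached 1; and up to 3 called genes with the smallest adjusted p per list. The following were named after their values were seen: Cbr2, Cacna1a, Ifitm3, Cxcl10, Nt5dc2, Plce1, Atp2b4, Stk17b, Adamts9, Idh2, Cd248, Irf9, Stat2, Jak1, Tyk2, Acta2, Lrp5, Axin2, Fkbp5, Tsc22d3, Ifi27, Isg20, Axl, Ifi207, Usp25, Ddx58, Adar, Eif2ak2, Il1rl1, Cd274, Mx1, Cdon and Ank3, and the promoters printed. Intervals and floors of counts cover counting error only. Results that need items withheld for evaluation are not reported here.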

Additional observations from a re-analysis of the deposited data

Results flagged for a closer look

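The arms differed in their change from day 0 to day 14 for 75 genes with a higher and 28 genes with a lower change under interferon, by the test of the difference itself (edgeR's quasi-likelihood F test). Within these, 2 genes passed the test in each arm with opposite signs. Pax5 fell in controls and rose under interferon, with an interaction of 6.66 on the log2 scale. Its control fall ended at 4 and 1 counts in the day 14 libraries, so its size is poorly determined. Atp2b4 rose in controls and fell under interferon, with an interaction of -1.78. Bpifc had the most positive interaction, 8.92, which rests on 0 counts in the interferon arm at day 0. Groups of 2 libraries were too small for a test of whether 1 library lies apart from the rest of its group.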

How the results depend on the processing

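With 2 libraries per group, variable genes have wide errors (SE 1.43 for Bglap and 0.97 for Alpl). Differences larger than the SE could also go uncalled, as that of Alpl did at -2.58 (adjusted p = 0.365, edgeR). The direction of all 103 calls was kept in 21 alternative settings. The 103 calls (75 positive, 28 negative) numbered 62 (49, 13) scaled by library size alone, 104 (74, 30) with DESeq2's size factors, 99 (68, 31) at a 1 CPM filter, 829 (360, 469) with no filter, 137 (87, 50) with the 8 libraries, 601 (312, 289) without the first control library of day 0 and the second of day 21, a pair set apart in earlier work on these data and by no test here, 476 (240, 236) with DESeq2 and 580 (261, 319) with voom, and 168 (59 negative) at an adjusted p below 0.1. The positive share was 72.8%, 79% scaled by library size and 50.4% with DESeq2. Leaving out 1 library gave 16 to 492 calls, 15 to 226 positive and 1 to 266 negative. Same-numbered libraries did not all deviate together: r ran from -0.0892 to 0.118 over the 6 pairs of the 4 groups compared and from -0.123 to 0.15 over all 15 pairs of groups, with 0.114 to 0.15 for the 3 pairs within the control arm. The libraries share only a number; with a replicate block there were 72 calls (57, 15), 71 of them among the 103, and Rnf19a, Draxin, Atp2b4, Col12a1, Plekhg4, Col5a2, Col11a1, Ifitm3, Tap1 and B2m were among the genes not called.

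With a threshold of 1 in place of 0.5 there were 8 blocked, 8 reversed, 11 enhanced and 72 interferon-only genes; scaled by library size, 14 were reversed and 25 interferon-only. Calls that took away from a control change, 12, numbered 6 by library size, 6 with the block, 20 with 8 libraries, 226 with no filter, 107 without that pair, 79 with DESeq2, 39 with voom and 1 to 115 leaving out 1 library. Calls that added to it, 4, numbered 16, 116, 129, 43 and 23 with 8 libraries, no filter, without that pair, DESeq2 and voom, and 0 to 47 leaving out 1. The 38 interferon-stimulated genes were 60 with DESeq2 and 6 to 53 leaving out 1 library. Uncalled values changed sign for Bglap (-0.65 to 0.27 leaving out 1 library; 0.27 without control day 14 replicate 2, 0.12 without interferon day 0 replicate 1), Runx2 (-0.445 to 0.242; the latter without control day 14 replicate 2) and Ifnar2 (-0.113 to 0.023; 0.016 without that pair, and 0.0027, 0.023 and 0.013 without control day 0 replicate 1, interferon day 0 replicate 2 or interferon day 14 replicate 1). The cause was not tested.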
